A study of Mus musculus with 2 samples.

Results

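The genes described here code for the coat of the lipid droplet and for the enzymes at its surface: the CIDE proteins Cidea, Cideb and Cidec, the perilipins Plin1, Plin2, Plin4 and Plin5, the lipases Pnpla2 and Pnpla3, and the lipase inhibitor G0s2. They are 10 of the 30153 genes named on the array and are read by 13 of its 43020 spots that are not controls. The spots were found by gene name, every probe of each gene was read, and the genes themselves were chosen from the measured values of this comparison, so their differences are given as a description with no test.

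The study compared mature hepatocytes (MHs) from healthy livers with Sox9+EpCAM- hepatocytes from livers injured by a diet containing DDC, a compound that causes bile duct injury. Each group is 1 array of Cy3-labelled total RNA from mouse. Per the methods, healthy and injured livers were from Sox9-EGFP mice and were digested by collagenase perfusion, MHs were collected by low-speed centrifugation and a Percoll gradient, and Sox9+EpCAM- hepatocytes were sorted by FACS as cells that were positive for the GFP reporter of Sox9 and negative for EpCAM. Diet, injury, sort and array therefore differ together and cannot be told apart, and the ages, the feeding time and the number of mice behind each array are not given in the sources used here.

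Each value below is a spot's processed intensity with the error that the scanner software assigned to it. That error and the standard error (SE) computed from it refer to the spot and its background. They do not cover animals or isolations, for which there is no replicate. For bright probes the error was close to a fixed share of the intensity (833 for 8330, Plin2 in MHs). The SEs of their differences were therefore near 0.20 on the log2 scale and are not a spread measured between spots. Differences are log2 of the Sox9+EpCAM- intensity over the MH intensity after each array was divided by its own 75th percentile (741 for MHs and 1110 for Sox9+EpCAM- hepatocytes), and they compare a probe only with itself. Probes printed at least 8 times had a median SD of 0.09 on the log2 scale between their spots in the MH sample (273 probes) and 0.08 on the other (309 probes). A 4-fold difference was taken as the rule of size.

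Some marker genes did not match the labels. Both samples are labelled male, but Xist, the RNA that silences an X chromosome in female cells, gave 1940 in the MH sample and 16.1, a value not well above background, in the Sox9+EpCAM- sample. Of the 5 probes for 4 genes of the Y chromosome, 0 stood well above background in the MH sample and 4 did so in the Sox9+EpCAM- sample. The library labelled MH thus differed from the library labelled Sox9+EpCAM- in sex-linked RNA also. Epcam, the surface protein that the sort selected against, gave 139 in the MH sample and 2770 in the Sox9+EpCAM- sample, and Sox9 itself was not well above background in the MH sample (8.87) and was dim on the other (60.7). All 12 hepatocyte markers examined were well above background on both arrays.

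Lipid droplets are stores of triglyceride and cholesteryl ester enclosed by a single layer of phospholipid. Perilipins coat this layer and regulate access of lipases, and CIDE proteins collect where droplets touch, where Cidec promotes the transfer of lipid from a small droplet to a large one. Adipose triglyceride lipase, the product of Pnpla2, starts the breakdown of triglyceride and is inhibited by G0s2. In hepatocytes Plin2 is the main constitutive coat protein, whereas Cidec, Plin1 and Plin4 are best known from white fat and appear in the liver when it stores fat.

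The probes of the paralogs Cidec and Cideb are shown because Cidec had the largest difference of the 10 genes and its paralog stayed within 2-fold. Both lie on the minus strand of their mm9 chromosome, and each has at least 1 reading frame with no stop codon. The capital letters used in other sequences below mark motifs, and these probes have none.
Cidec, chr6:113378116-113378175: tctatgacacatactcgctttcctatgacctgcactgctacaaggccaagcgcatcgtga
Cideb, chr14:56373658-56373717: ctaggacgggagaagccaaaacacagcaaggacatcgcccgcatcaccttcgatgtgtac
The longest run of bases that the Cidec probe shared with a probe of any other gene on the array was 13, and over all 13 probes of the droplet genes the longest such run ranged from 12 to 16 of their 60 bases.

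By the probe that stands for each gene, the brightest over both arrays, all 10 were detected well above background in both samples. Of them, 7 were higher in Sox9+EpCAM- hepatocytes and 3 were lower, where 41.8% of the genes with a difference were higher. Of the 7, Pnpla2 and Pnpla3 turned sign under some alternatives (down to -0.10 and -0.73). By the rule of size, 2 genes (Cidec and Plin4) were at least 4-fold higher and 0 were at least 4-fold lower, where 5.59% of the 23417 genes with a difference were at least 4-fold higher and 5.57% were at least 4-fold lower. As the genes were chosen with this contrast known, nothing is read from those shares. The median difference was 0.45 for the 10 genes and -0.19 for the 19235 genes above background on both arrays.

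**Figure D1:**
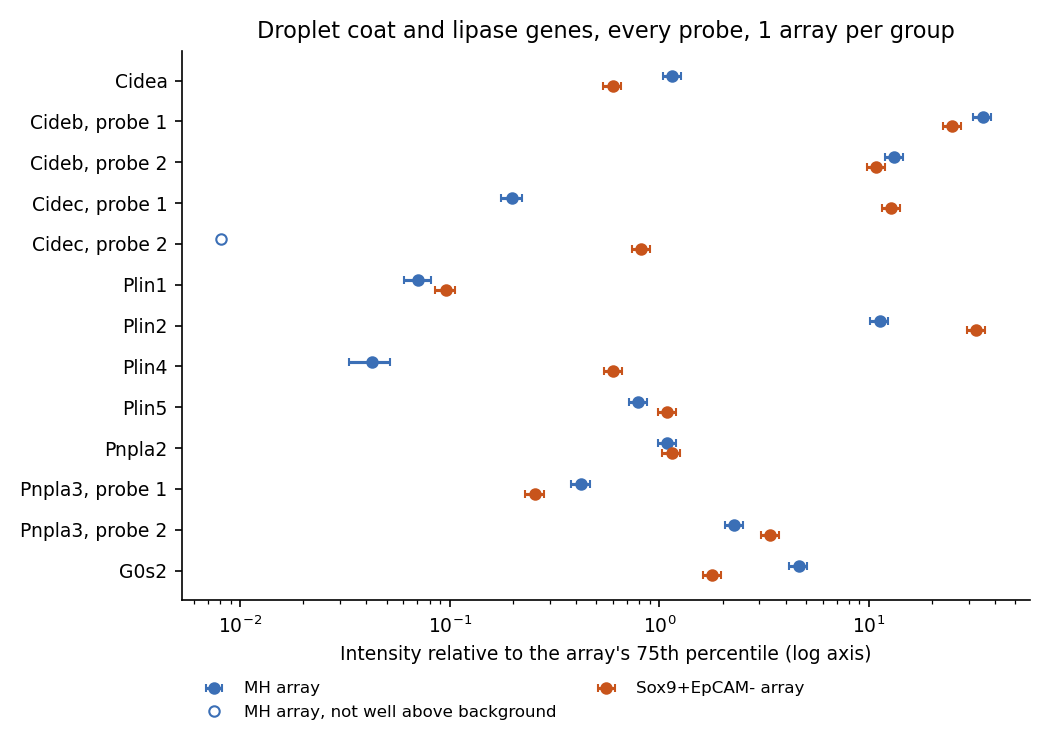
Processed intensity of all 13 probes of the 10 genes on each array, divided by that array's 75th percentile, on a log axis. Points are single spots, bars are the scanner software's spot error, and the open point (without a bar) was not well above background; Cidec and Plin4 have the widest gaps between the arrays.

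Among the CIDE genes, Cidec was far higher in Sox9+EpCAM- hepatocytes, and Cidea and Cideb were within 2-fold, below 0 after scaling. The Cidec probe printed above, which starts at base 552 of its transcript, gave 147 ± 16.4 in the MH sample and 14200 ± 1420 in the Sox9+EpCAM- sample. This was a 64.5-fold higher level in Sox9+EpCAM- hepatocytes (log2 difference 6.01 ± 0.22, SE), the 10th highest of the 19235 genes above background on both arrays. A second Cidec probe, at base 1642 of the transcript and chr6:113374630-113374689, gave 5.98 in the MH sample, not well above background, and 908 ± 90.9 in the Sox9+EpCAM- sample. Against the lowest intensity that was well above background in the MH sample (27.8), the second probe was at least 21.8-fold higher. The 2 probes thus pointed the same way, and the bound of the second does not set an upper limit.

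Cideb, which is expressed in the normal liver and takes part in the assembly of very low density lipoprotein, was bright on both arrays. The probe printed above gave 25800 ± 2580 for MHs and 27700 ± 2770 for Sox9+EpCAM- hepatocytes, which after scaling was a log2 difference of -0.48 ± 0.20. The second Cideb probe (chr14:56372942-56373001) gave 9780 ± 978 and 12000 ± 1200, a difference of -0.29 ± 0.20. Neither Cideb probe reached a 2-fold difference, and both unscaled intensities were higher in the Sox9+EpCAM- sample, so the sign comes with the scaling. Cidea, best known from brown fat, gave 854 ± 85.6 in the MH sample and 664 ± 66.5 in the Sox9+EpCAM- sample, and was 1.93-fold higher in MHs (log2 difference -0.95 ± 0.20). Its probe lies at 67527351 to 67527410 on the plus strand of chromosome 18 (mm9).

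The 4 perilipins were all higher in Sox9+EpCAM- hepatocytes, by very different amounts. None fell below 0 under the 10 alternatives, but Plin1 was at 0.02 with normexp, nearly no difference. Several alternatives could not change these genes, which each have a single probe and were detected in both samples. Plin4, a perilipin of white fat and muscle, was at 31.4 ± 6.81 in the MH sample, just above the lowest intensity well above background, and at 668 ± 66.9 in the Sox9+EpCAM- sample. It was 14.2-fold higher (log2 difference 3.83 ± 0.34), the 94th highest of the genes above background on both arrays. Its probe starts at base 5654 of the transcript (chr17:56240055-56240114, minus strand). With the normexp background correction in place of the scanner software's own, the difference of Plin4 was 2.33, still past 4-fold.

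Plin2 had the next largest difference of the perilipins. It was well expressed in the MH sample, at 8330 ± 833, and reached 36100 ± 3610 in the Sox9+EpCAM- sample, which was 2.89-fold higher (log2 difference 1.53 ± 0.20). This placed it above 93.6% of the genes above background on both arrays, below the rule of size. The probe is at chr4:86302847-86302906 on the minus strand.

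Plin5, which couples droplets to mitochondria in tissues that burn fat, was at 587 ± 59.1 for MHs and 1210 ± 122 for Sox9+EpCAM- hepatocytes, a 1.38-fold higher level (log2 difference 0.46 ± 0.21). Plin1, the perilipin that controls lipolysis in white fat, was dim on both arrays, at 52.4 ± 7.79 and 106 ± 11.2, with a log2 difference of 0.43 ± 0.26. Both were thus within 2-fold. Plin4 and Plin5 are neighbours on chromosome 17 with 0 genes between them in RefSeq, and only Plin4 passed the rule of size, although this difference between the neighbours was not tested.

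**Figure D2:**
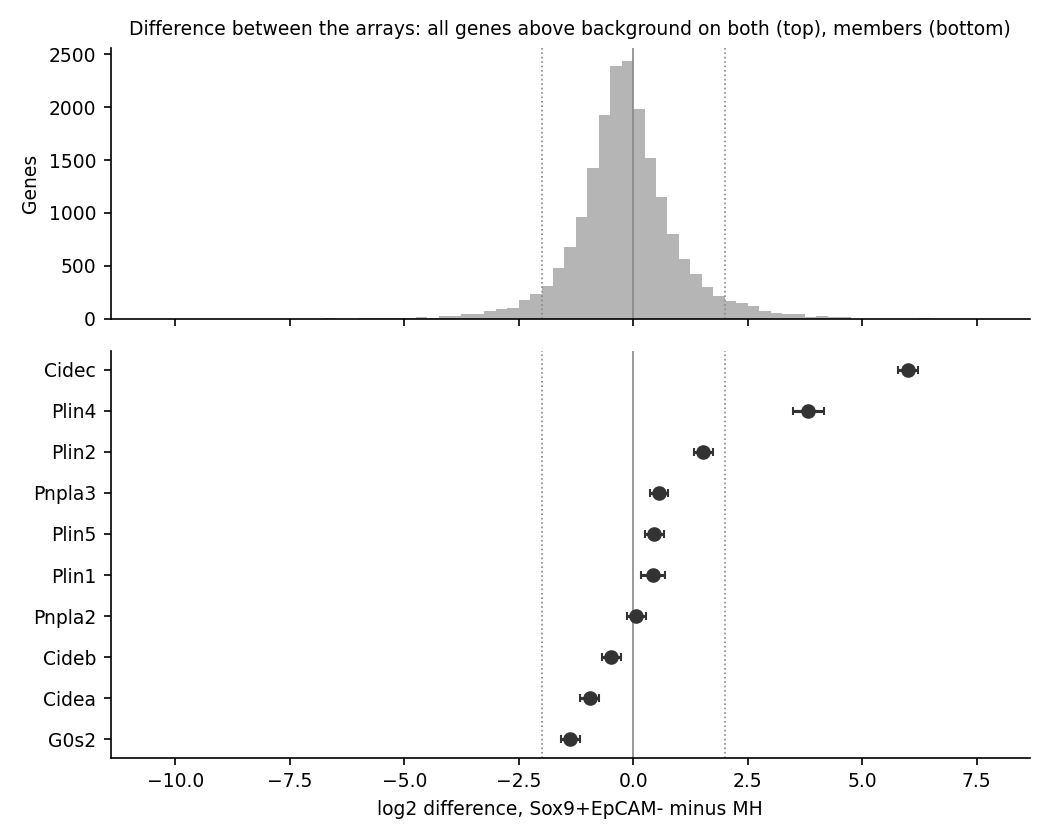
Top, histogram of the log2 difference (Sox9+EpCAM- minus MH) of the 19235 genes above background on both arrays; bottom, the 10 droplet genes, with bars for the SE from the spot errors and dotted lines at a 4-fold difference. Cidec at 6.01 and Plin4 at 3.83 lie in the upper tail and the other 8 genes lie between the dotted lines.

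The lipase genes differed little between the arrays, and the inhibitor was lower in Sox9+EpCAM- hepatocytes. Pnpla2 gave 807 ± 81 for MHs and 1270 ± 127 for Sox9+EpCAM- hepatocytes, a log2 difference of 0.07 ± 0.20, which turned to -0.06 with scaling to Gapdh and to -0.10 in the deposited value table. G0s2, whose product binds adipose triglyceride lipase and blocks it, gave 3420 ± 342 and 1980 ± 198. It was 2.59-fold higher in MHs (log2 difference -1.37 ± 0.20) and was the only one of the 10 genes whose level in Sox9+EpCAM- hepatocytes was lower by 2-fold or more, a size that 16.7% of the genes with a difference reached, although Cidea also passed 2-fold with scaling to Gapdh (-1.08) and in the deposited table (-1.12). The probes are at chr7:148645928-148645987 (Pnpla2, plus strand) and chr1:195098925-195098984 (G0s2, minus strand).

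Pnpla3, a droplet protein of the same family as Pnpla2, had no settled direction. The probe near the end of its transcript (base 4520, chr15:84019823-84019882), which stands for the gene, gave 1690 ± 169 for MHs and 3750 ± 375 for Sox9+EpCAM- hepatocytes, a log2 difference of 0.57 ± 0.20. The probe at base 1137 (chr15:84016440-84016499) gave 313 ± 32.2 and 283 ± 28.8, a difference of -0.73 ± 0.21. These probes lay 1.30 apart on the log2 scale. Among the 3274 genes with exactly 2 probes above background on both arrays the median gap was 0.66, and 35.2% of them had a gap over 1. Which transcripts each probe reads was not examined here.

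**Figure D3:**
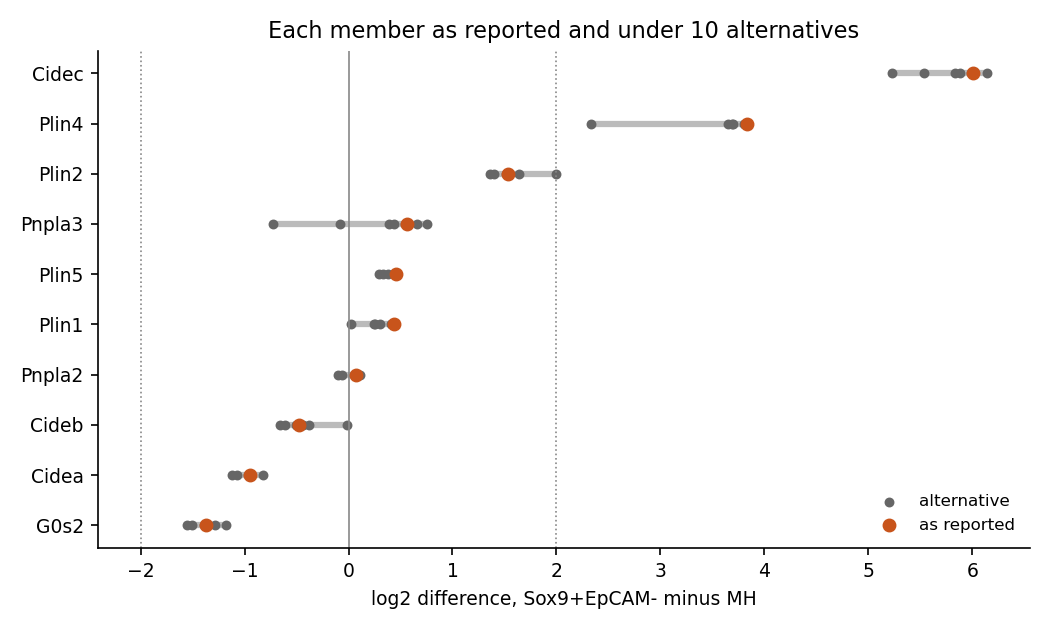
The log2 difference of each gene as reported (large points) and under 10 alternatives of background correction, scaling, choice of probe and filter (small points), with dotted lines at a 4-fold difference. Cidec stayed between 5.23 and 6.14 and Plin4 between 2.33 and 3.83, and Pnpla2 and Pnpla3 crossed 0.

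The promoters of the 3 genes at least 2-fold higher (a size that 14.2% of the genes with a difference reached) are shown so that the sequence before their start sites can be set beside these values. RefSeq windows (GRCm38.p6) from 250 bases before to 50 bases after a start site were at hand for 9 of the 10 genes, as 11 windows, and only the bases before the start are printed. Several motifs were searched on both strands and are in capitals where found: AGGTCANAGGTCA (the direct repeat that PPAR-RXR dimers bind), AGGTCA (a nuclear receptor site, of which that repeat holds a pair), CACGTG (E-box), TGANTCA (AP-1), TATAAA and TGACGTCA (cAMP response element).
Cidec, first start site, chr6:113435761-113436010, minus strand: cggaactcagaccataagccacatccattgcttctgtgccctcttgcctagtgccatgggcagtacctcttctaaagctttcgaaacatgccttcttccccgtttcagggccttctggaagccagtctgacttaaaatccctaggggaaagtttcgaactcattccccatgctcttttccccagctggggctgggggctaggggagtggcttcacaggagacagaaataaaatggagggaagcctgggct
Cidec, second start site, chr6:113434765-113435014, minus strand: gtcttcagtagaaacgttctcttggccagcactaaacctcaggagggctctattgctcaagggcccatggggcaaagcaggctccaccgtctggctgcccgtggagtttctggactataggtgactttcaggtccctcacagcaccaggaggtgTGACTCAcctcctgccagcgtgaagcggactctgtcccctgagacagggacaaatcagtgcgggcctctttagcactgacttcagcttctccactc
Plin4, chr17:56109783-56110032, minus strand: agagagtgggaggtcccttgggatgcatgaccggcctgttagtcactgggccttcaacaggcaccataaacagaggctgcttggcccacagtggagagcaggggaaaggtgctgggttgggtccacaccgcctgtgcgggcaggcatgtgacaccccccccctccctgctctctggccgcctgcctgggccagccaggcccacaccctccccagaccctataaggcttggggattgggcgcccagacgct
Plin2, chr4:86670060-86670309, minus strand: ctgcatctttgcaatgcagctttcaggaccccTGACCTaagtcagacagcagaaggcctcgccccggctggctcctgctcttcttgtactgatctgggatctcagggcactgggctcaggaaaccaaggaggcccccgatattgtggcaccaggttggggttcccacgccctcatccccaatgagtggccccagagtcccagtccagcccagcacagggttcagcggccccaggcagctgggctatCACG
The TGANTCA match of Cidec starts 96 bases before its second start site, and 7.81% of the 32851 promoter windows of the reference hold that motif. The AGGTCA match of Plin2 starts 218 bases before the start on the other strand (16.3% of windows), and its CACGTG, of which the last bases fall after the start and are not printed, begins 4 bases before it (7.15% of windows). Genes within 2-fold held matches too: TGANTCA was found in 3 of the 11 windows (Cidec, Cideb and Plin5), AGGTCA in 3 (Plin2 and both windows of Plin5), and TATAAA (Cideb, 13.6% of all windows) and TGACGTCA (Pnpla3, 1.79%) in 1 each. AGGTCANAGGTCA is in 0.04% of windows and in 0 of the 11 windows of the droplet genes. A match describes these letters alone, and binding was not measured.

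Of 15 other genes of the droplet coat and droplet formation, 14 had a difference, 1 was at least 4-fold higher and 0 were at least 4-fold lower (1, Fitm2 at -2.07, by the probe with the largest difference), with a median of -0.36. These counts, and those of the lists that follow, stand beside the 5.59% and 5.57% of all genes given above. The one was Hilpda, which is induced by hypoxia and by fatty acids and, like G0s2, inhibits adipose triglyceride lipase. Hilpda was at 298 in the MH sample and 4670 in the Sox9+EpCAM- sample, a 10.5-fold higher level (log2 difference 3.39). The remaining perilipin, Plin3, was at 2020 and 4170 (0.46), and the seipin gene Bscl2, needed for droplet formation, was at 634 and 1540 (0.70). At the other end, the droplet protein Mettl7b was at 39200 and 19000, a difference of -1.63.

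Of 17 other lipases and cofactors, 16 had a difference, 3 were higher and 13 lower, 1 of them (Lipg) by at least 4-fold and 0 higher by that much, with a median of -1.15. Over all genes with a difference, 41.8% were higher after this scaling. The count lower by at least 4-fold was 2 with scaling to Gapdh and in the deposited table, where Lipc joins (down to -2.13), and Ddhd2 (-0.24) turned sign by choice of probe (up to 0.88). Lipg, the endothelial lipase, was at 1110 in the MH sample and 261 in the Sox9+EpCAM- sample (-2.67). Hepatic lipase (Lipc) was at 8360 and 3240 (-1.95), and the carboxylesterase Ces1d, which mobilises stored triglyceride for secretion, was at 106000 and 48600 (-1.71). Hormone-sensitive lipase (Lipe), which acts after Pnpla2, was at 2680 and 1680 (-1.26), and Abhd5, the activator of adipose triglyceride lipase, was at 581 and 380 (-1.20), although its probes ranged from -1.53 to 0.31. Monoacylglycerol lipase (Mgll), the last step of the pathway, was higher, at 3770 and 8710 (0.63, with its probes from 0.63 to 1.74).

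Of 20 genes of triglyceride and cholesteryl ester synthesis, 19 had a difference, 0 were at least 4-fold higher and 2 at least 4-fold lower, with a median of -0.30. Dgat2, which adds the last fatty acid to triglyceride, was at 8770 in the MH sample and 2360 in the Sox9+EpCAM- sample (-2.48), and Dgat1, the other enzyme of that step, was at 3200 and 1790 (-1.42). Gpat4, named Agpat6 on the array and active in the first step, was at 18100 and 5750 (-2.24, and -1.86 with quantile normalization, which is under 4-fold). Gpat3, named Agpat9 on the array, was not well above background in MHs (5.79) and was at 123 in Sox9+EpCAM- hepatocytes, at least 2.95-fold higher (log2 bound 1.56), and over the alternatives it lay between 0.58 and, without the bound, 3.83. By the probe with the largest difference, Agpat2 was also at least 4-fold lower (-2.06). Soat2, which makes cholesteryl ester, was higher, at 1400 and 4930 (1.23).

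Among 14 transcription factors of lipid storage, all with a difference, 0 passed the rule of size in either direction, 2 were higher and 12 lower, and the median was -0.59, where the signs of Rxra and Hnf4a turned with quantile normalization and that of Creb3l3 with scaling to Gapdh or the deposited table. Pparg, the regulator of fat storage known to act on Cidec and Plin4, was at 407.8 in the MH sample and 473.5 in the Sox9+EpCAM- sample, a difference of -0.37. Ppara, the regulator of fatty acid oxidation in hepatocytes, was at 4960 and 4010 (-0.89, with its probes from -1.58 to -0.14). Srebf1, which drives fatty acid synthesis, was at 2520 and 1250 (-1.59), and Ppard was at 3640 and 1590 (-1.78).

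The 15 known targets of PPARs outside the droplet were split. Of them 4 were at least 4-fold higher and 1 at least 4-fold lower, against 5.59% and 5.57% of all genes, and the median was -0.16 (0.23 with quantile normalization). Pdk4, which limits the use of glucose for energy, was at 264 in the MH sample and 11900 in the Sox9+EpCAM- sample (30.1-fold higher). The hormone gene Fgf21 was at 7.71, not well above background, and 1180, which was at least 28.3-fold higher (log2 bound 4.82, and down to 3.28 over the alternatives). Acot1, a thioesterase of fatty acyl-CoA, was at 638 and 6690 (log2 difference 2.81), and Angptl4, an inhibitor of lipoprotein lipase, was 5.26-fold higher (3950 and 31100). Fabp4, the fatty acid carrier of fat cells and endothelium, was at 1900 and 619 and was 4.60-fold higher in MHs. Cpt1a, which brings fatty acids into mitochondria, was at 13600 and 22800 (0.16), a sign that turned in the deposited table (-0.02).

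**Figure D4:**
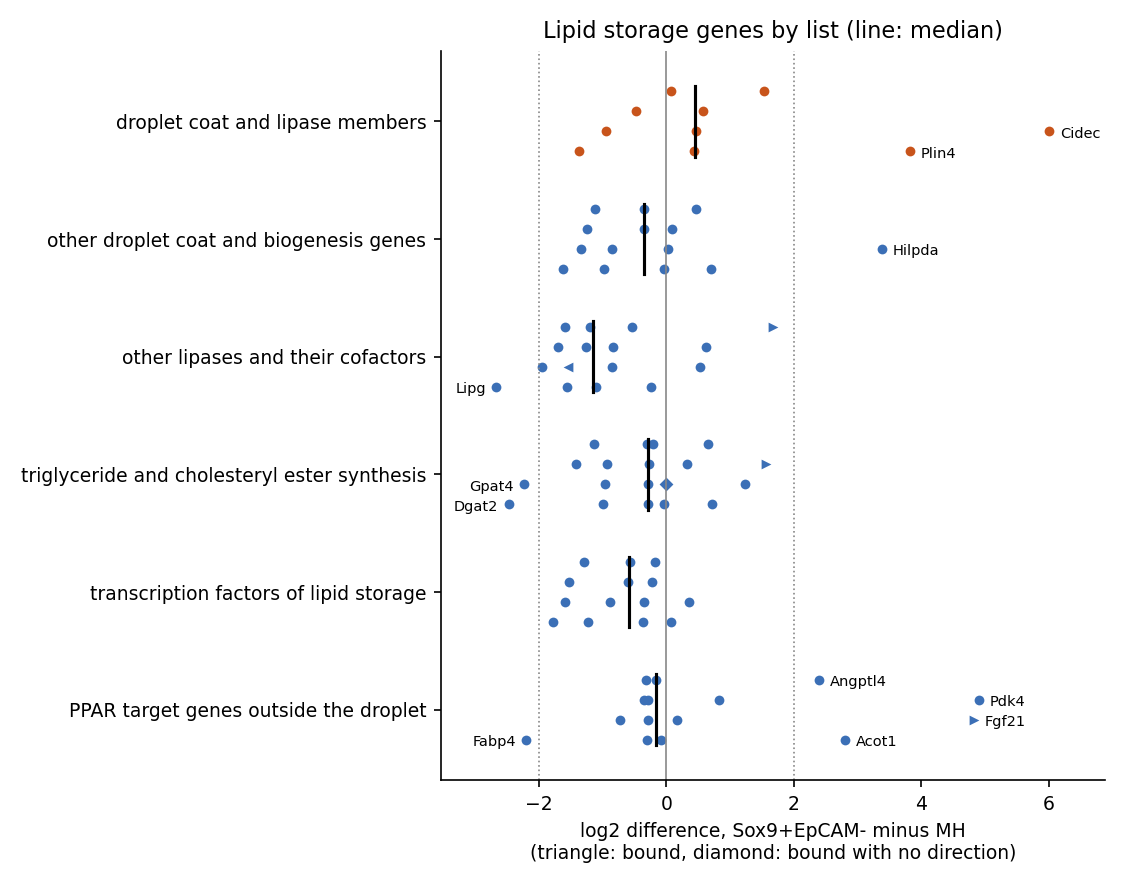
The log2 difference (Sox9+EpCAM- minus MH) of the 10 droplet genes (first row) and of the genes of 5 lists of lipid storage, with 1 point per gene, the median of each list as a line and dotted lines at a 4-fold difference. Triangles are bounds for genes above background on 1 array only, diamonds are such genes whose bound gives no direction, and genes past 4-fold are named.

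In such bulk samples, a change in the RNA per cell and a change in the share of a cell type cannot be told apart, so the markers of other cells are given beside these values. Fat cells express Cidec, Plin1 and Plin4 at high levels, and of 8 adipocyte markers 7 had a difference, 0 were at least 4-fold higher and 1 (Fabp4) was at least 4-fold lower, with a median of -0.42. The adipocyte hormone gene Adipoq was at 1280 in the MH sample and 896 in the Sox9+EpCAM- sample (-1.10), and Lep was not well above background on either. Retn was at 2230 and 2490 (-0.42, with another probe at 0.70), and Cfd went the other way, at 30.7, not above background, and 91.1, at least 1.98-fold higher (log2 bound 0.99, and down to 0.07 over the alternatives). The summed level of the adipocyte markers, each as a multiple of its array's 75th percentile, was 7.60 for MHs and 3.87 for Sox9+EpCAM- hepatocytes. The part of fat cells in the values of Cidec and Plin4 was not tested.

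Stellate cells also hold lipid droplets. Of 10 stellate cell markers, 8 had a difference, 1 (Cygb, 57.4 and 1420) was at least 4-fold higher and 1 (Lrat, which makes the retinyl ester of their droplets) was at least 4-fold lower. Lrat was at 94.6 in the MH sample and 3.74, not well above background, in the Sox9+EpCAM- sample, so that its difference is a bound (-2.95), and it was under 4-fold with normexp (-1.75). Pdgfrb and Hand2 were not well above background on either. Over the list, 6 were higher and 1 lower, with a median of 0.31. The summed level of the stellate cell markers was 1.38 for MHs and 2.89 for Sox9+EpCAM- hepatocytes, with most of the rise from Cygb.

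Markers of connective tissue, and some of ducts, were higher in the sample where Cidec and Plin4 were higher. All 8 fibroblast markers were higher in Sox9+EpCAM- hepatocytes, 6 of them at least 4-fold. Their summed level was 12.4 and 54.9, where most of the 12.4 came from Dcn (8080 and 15000, 0.31). Of the 6, Col1a1, Col1a2 and Col3a1 (175 and 22300) were detected in both samples, and Lum, Eln and Mgp are bounds against the MH sample, so that 3 remain among jointly detected genes, and Lum was under 4-fold with normexp (1.48). Of 9 cholangiocyte markers, 2 (Epcam and Spp1) were at least 4-fold higher and 0 were at least 4-fold lower, 6 being higher and 3 (Krt7, Cftr and Prom1) lower with a median of 0.42, and the summed level was 2.92 and 49.4, most of it from Spp1. The part of these cells in the values of Cidec, Plin4, Plin2 and Hilpda was not tested.

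Other markers were lower in the Sox9+EpCAM- sample. Of 10 macrophage and leukocyte markers, 1 (Cd68) was at least 4-fold higher and 4 at least 4-fold lower (Clec4f, Adgre1, Cd74 and Lyz2, and 5 under 4 of the 10 alternatives). The summed level of the 10 was 41.5 for MHs and 15.8 for Sox9+EpCAM- hepatocytes, most of the latter from Csf1r (12200 and 13700, -0.42). Of 7 endothelial markers 6 had a difference, all lower, with summed levels of 6.92 and 2.09. At least 4-fold lower were 4 of them (Clec4g, Tek, Stab2 and Cdh5, the last a bound that was -1.67 with normexp). All 12 hepatocyte markers were lower, 1 of them (Ass1) at least 4-fold, with a median of -0.89, but with quantile normalization Apoa1, Fgb and Hnf4a turned to slightly above 0 (at most 0.06) and Ass1 was at -1.58. Albumin (Alb) was at 207000 and 170000, a difference of -0.87. The differences of Cidea and G0s2 lay within the range of the hepatocyte markers (-2.07 to -0.23), and that of Cideb was smaller in size than their median. The part of hepatocytes in these values was not tested.

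**Figure D5:**
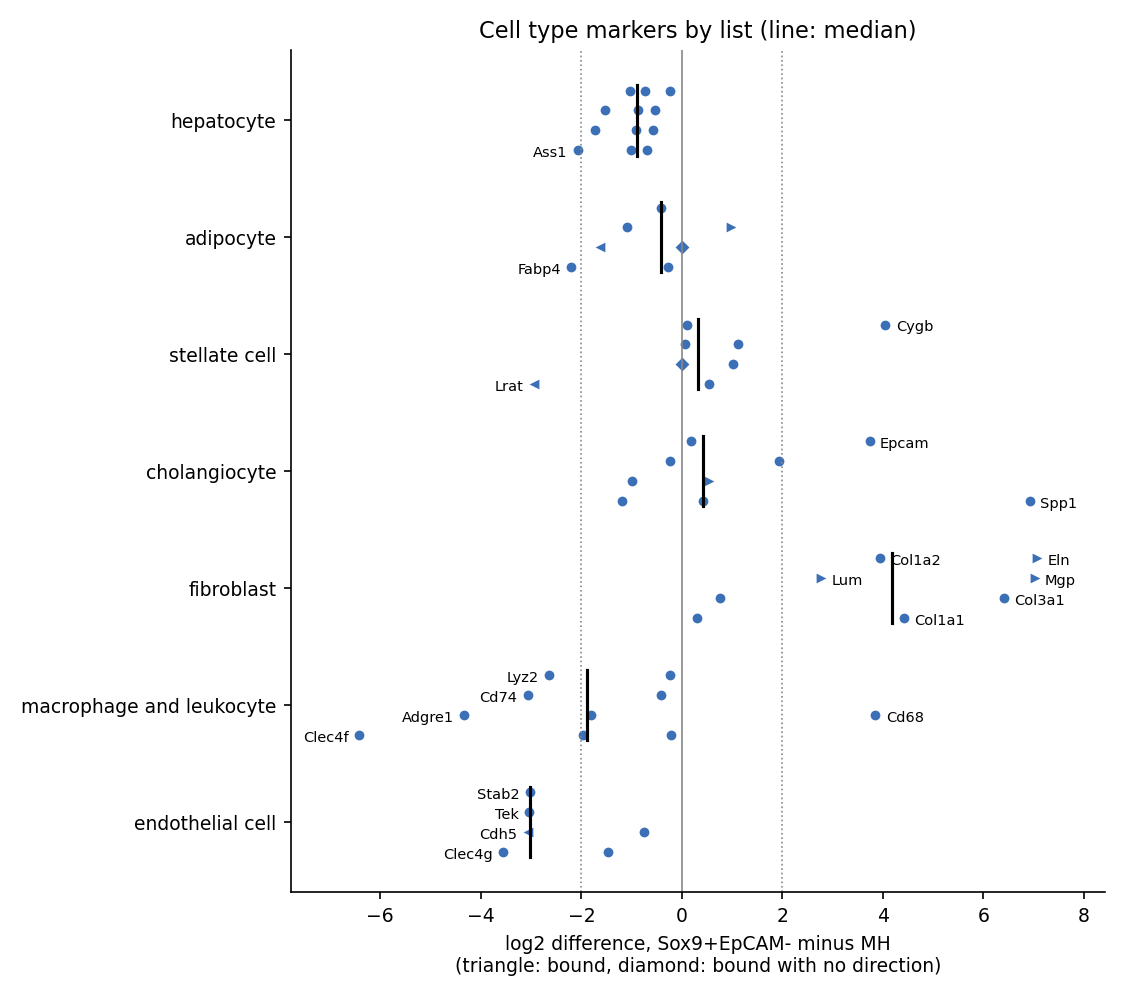
The log2 difference (Sox9+EpCAM- minus MH) of the markers of 7 cell types, with 1 point per gene, the median of each list as a line, dotted lines at a 4-fold difference, and triangles and diamonds for bounds as in the plot of the lipid storage lists. The fibroblast markers lie to the right, the endothelial markers to the left, and the adipocyte median is -0.42.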

How the data were processed

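Total RNA of MHs and of Sox9+EpCAM- hepatocytes was hybridised to 1 Agilent array each (1 colour, Cy3), on 1 slide and in 1 scan per the file headers. The authors deposited, for each array, the intensity of every spot as written by Feature Extraction 10.7.3.1, with the background subtracted and surface trends removed and with no normalization between arrays, and the mean spot and local background intensities. They also deposited a table of ratio values, each of which was found to be the processed intensity over its array's median (96.5 for MHs and 164 for Sox9+EpCAM- hepatocytes). Probe positions are on mm9.

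Intensities were divided by the 75th percentile of the spots of each array that are not controls and taken to log2. Spots with outlier flags on either array were left out and spots of a probe were averaged. Each gene was represented by the brightest of its probes, averaged over both arrays. A probe well above background on 1 array only was given a bound, for which its dim value was raised to the smallest detected signal of that array (27.8 or 18.4) where it lay below it. A bound that gave no direction entered as 0, and genes above background on neither array (6736) have no difference. No spot was saturated, and none of the spots of the 10 genes was left out. With 1 array per group there is no test, and precision is limited by the number of arrays. SEs were computed from the scanner software's spot errors. The steps were tested on simulated data with known changes. Python 3.11.15, pandas 2.3.3, numpy 2.4.6, R 4.3.3 and limma 3.58.1 were used, with normexp from limma and quantile normalization computed in Python. Promoters and gene neighbours are from RefSeq tables of GRCm38.p6.

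The 10 genes and all lists were chosen with earlier results of these data known. All 10 genes are named, and from each list the genes at least 4-fold different (up to 4 from each end) and those needed to say which defining markers were dim. Other genes of the lists were named for their role, after their values were seen. Alternatives were another background correction (normexp, offset 50), 4 other scalings (quantile, Gapdh, the deposited table and the median of jointly detected probes), other choices of probe, outlier spots kept, no bound, a restriction to jointly detected genes, and 2-fold or 10-fold as the threshold.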

Additional observations from a re-analysis of the deposited data

How the results depend on the processing

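The number of droplet genes at least 4-fold higher was 2 under all 10 alternatives and with a threshold of 10-fold, and 3 with a threshold of 2-fold, where Plin2 joins and 14.2% of all genes with a difference pass. The number lower was 0 under the 10 alternatives and with 10-fold, and 1 with 2-fold (G0s2). Keeping outlier spots, dropping the bound and restricting to jointly detected genes could not change these genes. None of their spots was left out, and all 10 were detected in both samples. The choice of probe likewise could not change a gene read by a single probe. Of 100 differences of single genes under the alternatives, these fixed ones included, 96 moved by less than 1.5-fold and 4 by more. These 4 were Plin4 with normexp (2.33), Cidec as the median of its probes (5.23), and Pnpla3 as the median of its probes (-0.08) or by the probe with the largest difference (-0.73), where its sign turned. The median over the 10 genes lay between 0.24 and 0.45. The median over the genes above background on both arrays shifted by -0.13 with scaling to Gapdh and by -0.18 in the deposited table, which moves the differences of the genes above background on both arrays by that amount. Over all genes, normexp gave 612 genes at least 4-fold higher and 660 lower, against 1309 and 1304. Of 120 list medians, 1 moved by more than 1.5-fold (endothelial markers with normexp, -1.95). No paired analysis was possible because a single array stands for either group, and for that reason no array could be left out and no slide term could be added. Plin4 and Plin1 on the MH array lie close to background, where the intensities are least precise.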
